A study of Arabidopsis thaliana with 24 samples.

Results

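The genes described here encode expansins, GH9 endoglucanases, cellulose synthase-like proteins and TRICHOME BIREFRINGENCE-LIKE proteins, families that loosen, cut, build or acetylate the polysaccharides of the plant cell wall. Their probe sets on an Arabidopsis thaliana oligonucleotide array were chosen by annotated gene symbol alone (starting with EXPA, EXPB, EXLA, EXLB, GH9, CSL or TBL), with no requirement on intensity. This gave 66 of the 22746 non-control probe sets. There were 12 for alpha-expansins (EXPA), 4 for beta-expansins (EXPB), 4 for expansin-like genes (EXLA and EXLB, together called EXL here), 17 for GH9, 7 for CSL and 22 for TBL. Of these, 62 name 1 gene and 4 name several near-identical genes (EXP26 with EXPA22, EXPA25 with EXPA23, GH9B15 with GH9B14, GH9B10 with GH9B9), so those 4 cannot be assigned to a gene. RefSeq lists 122 genes with such symbols and 69 of them have a probe set here. Coverage ran from 7 of 26 CSL and 22 of 41 TBL genes to 19 of 21 GH9 genes and all 3 EXLA genes, and nothing is said here of the genes without one.

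All plants were of the accession Col-0 and grew in continuous light, and RNA of 24 samples, in 8 sets of 3 arrays, was hybridised one sample to an array. Green parts of seedlings raised on soil (23 °C, relative humidity 65%) make up ATGE_7. Whole plants from the same soil regime, taken after the transition and ahead of bolting, make up ATGE_22, ATGE_23 and ATGE_24, whose labels mention developmental drift and are the same for all 3. Seedlings raised at 20 °C on a medium labelled 0.5x GM, again as green parts, make up ATGE_96, ATGE_97, ATGE_100 and ATGE_101, without sucrose in ATGE_96 and ATGE_100 and with 5% sucrose in ATGE_97 and ATGE_101. For ATGE_96 and ATGE_97 the labels add that most plants looked like the reference plants of ATGE_7; for the later pair they add nothing, so what separates the pairs is not given. Nothing in the labels tells if the 3 samples of a set were grown apart, so the p-values below measure only the spread between these samples, which may be technical.

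Plant cells grow when their walls yield to turgor. Expansins loosen the contacts between cellulose and other wall polymers at acid pH without cutting them, and alpha- and beta-expansins are the branches for which this activity is known; for the expansin-like genes it has not been established. GH9 enzymes are endo-1,4-beta-glucanases: class A is membrane-anchored and includes KORRIGAN, which cellulose synthesis requires, class B is secreted, and class C carries an added carbohydrate-binding module. CSL proteins are Golgi or plasma membrane glycan synthases, with CSLA making mannan and glucomannan, CSLC the glucan backbone of xyloglucan, and CSLD acting in tip-growing cells such as root hairs. Many TBL proteins add O-acetyl groups to wall polysaccharides, with TBL23, TBL25 and TBL26 acting on mannan and TBL28, TBL30, TBL32, TBL34 and TBL35 on xylan.

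Intensity is the value the authors deposited for a probe set on an array, scaled so that each array has a trimmed mean of 100. Medians per set lay between 36.1 and 42.7, and arrays of 1 set correlated at r of 0.976 to 0.991 across probe sets. Green-tissue markers (9 photosynthesis probe sets) were high in all sets, with 153.8 as their lowest and 6003 as their highest value on any array. Their sum differed between sets. It was 24990 to 27480 in ATGE_7, 25410 to 31710 in ATGE_22, 29480 to 34300 in ATGE_23 and 28490 to 33480 in ATGE_24. On medium it was 23170 to 24300 in ATGE_96, 20800 to 22980 in ATGE_97, 15760 to 22210 in ATGE_100 and 16730 to 20520 in ATGE_101. The part of this sum in the results below was not tested. Of 3 probe sets listed for root, the root-hair expansins EXPA7 and EXPA18 stayed at or under 15.5 and 26.7. The third, the beta-glucosidase PYK10, ranged from 6.82 to 2746. The summed root list was 2245 to 2337 in ATGE_96, 2511 to 2773 in ATGE_97, 1165 to 1314 in ATGE_100, 990 to 1091 in ATGE_101, 717 to 809 in ATGE_7 and 27.4 to 85.1 in the whole plants. Large differences of this sum between sets were those of PYK10, so the root list stands for 1 gene and does not measure root tissue. The pollen expansin EXPB5 stayed at or under 20.1, the 4 seed probe sets at or under 26.8, and no floral marker was annotated. Actin probe sets gave a 3′ to 5′ ratio of 8.62 ± 0.43 (SD, n = 3) in ATGE_101 and 3.60 ± 0.79 in ATGE_100, with GAPDH ratios of 1.33 and 1.39. Actin ratios had means of 9.51, 10.06 and 9.01 in ATGE_22, ATGE_23 and ATGE_24, 5.96 in ATGE_7, 4.12 in ATGE_96 and 3.80 in ATGE_97. GAPDH ratios had means of 0.93 in ATGE_7 and 1.53, 1.16 and 1.83 in the whole-plant sets. In RNA of mixed tissue, fewer cells of a type and less RNA per cell cannot be told apart.

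The share of members that differed among the sets varied by family, and 23 members were near the bottom of the scale on every array. A moderated F test (limma, adjusted p under 0.05 over all probe sets) called 40 of the 66 for any difference among the 8 sets, which is 60.6% against 67% of all probe sets. By family these were 6 of 12 EXPA, 2 of 4 EXPB, 4 of 4 EXL, 8 of 17 GH9, 6 of 7 CSL and 14 of 22 TBL. The distance between the highest and the lowest set mean had a median of 0.83 on the log2 scale over the 66 and 0.76 over all probe sets. It was 2.92 for EXL, with a range of 1.45 to 5.65, then 1.72 for CSL, 1.49 for EXPB, 0.81 for EXPA, 0.78 for TBL and 0.75 for GH9. Neither these medians nor the counts are tests between families.

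**Figure D1:**
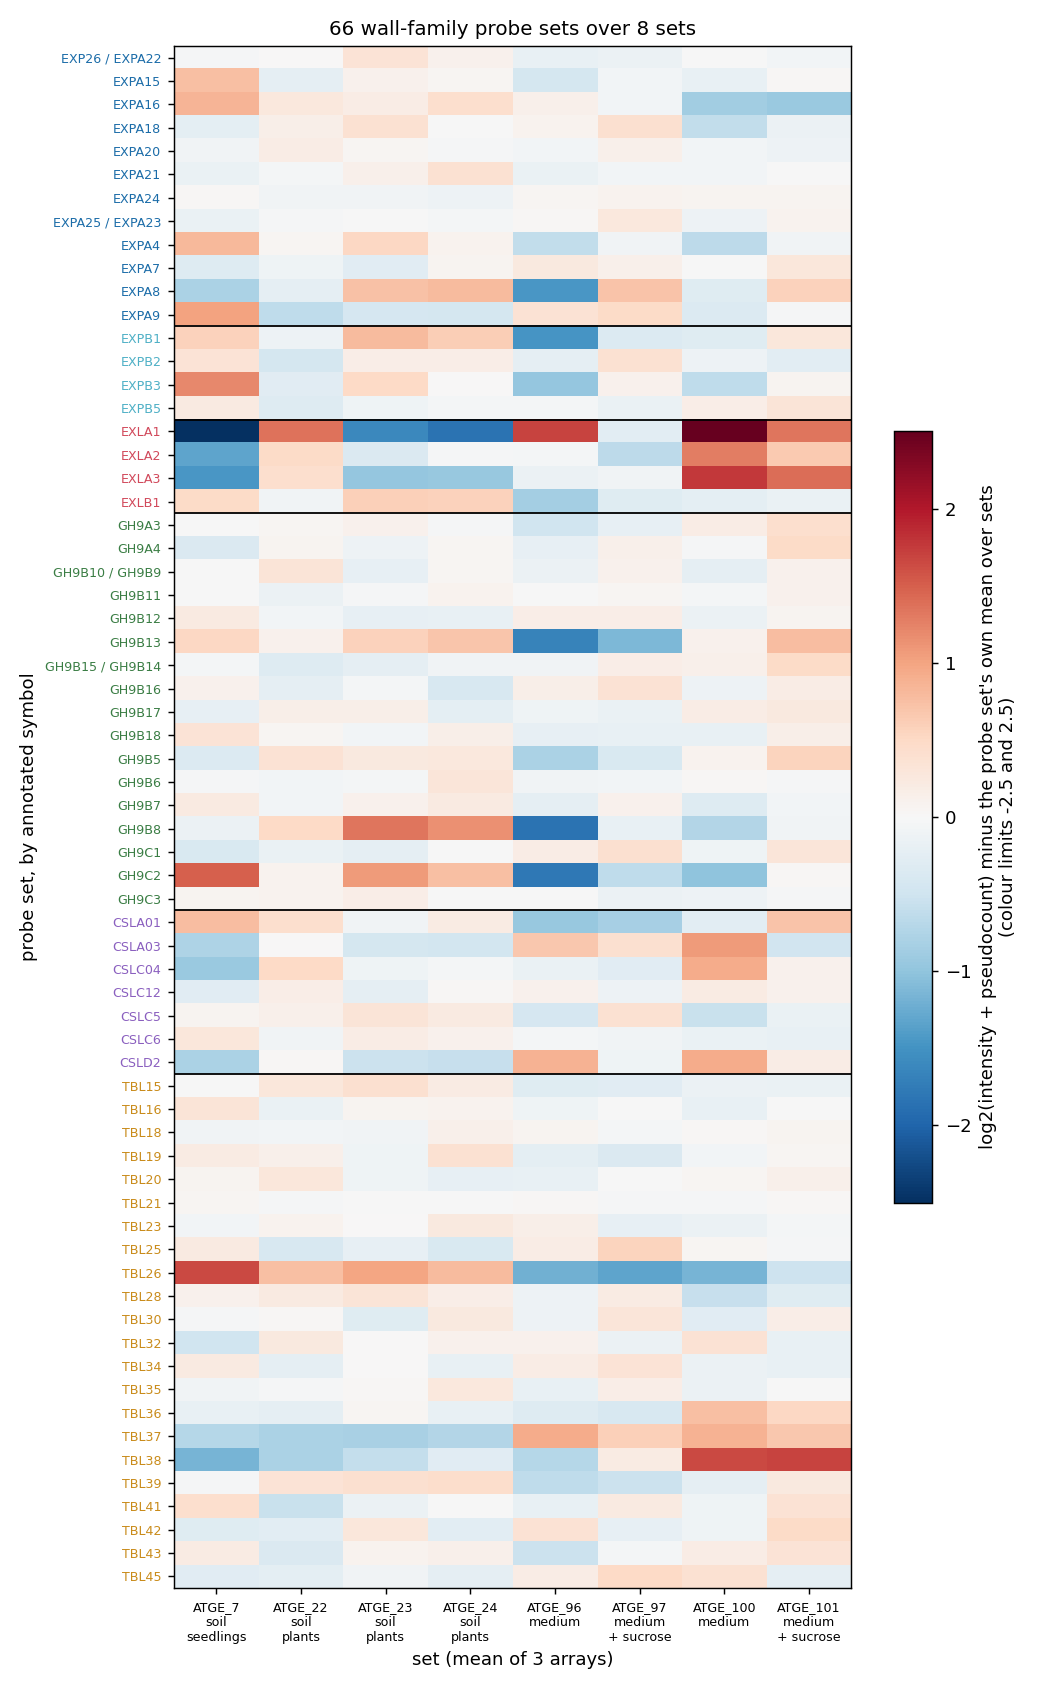
Mean log2(intensity + pseudocount) of each of the 66 probe sets in each of the 8 sets (3 arrays each), as the difference from that probe set's own mean over the sets (colour; red above, blue below, limits at ±2.5). EXLA1 spans the widest range, 5.65, from blue in ATGE_7 to red in ATGE_100, while many EXPA, GH9 and TBL probe sets are pale in every column.

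In 23 of the 66 all 24 arrays lay under 22.9, the 40th percentile of all values, compared with 28.5% of all probe sets. They comprised 5 EXPA, 2 EXPB, 9 GH9 and 7 TBL probe sets, and no CSL or EXL. Several lie next to each other in the RefSeq gene order: EXPA21 to EXPA26 form a run of 6 genes on chromosome 5, and the 4 probe sets that cover them reached at most 14.2, the highest value of EXPA21. The run GH9B9 to GH9B12 on chromosome 2 was also low, with 24.7 as the highest value of GH9B12. TBL21, next to TBL19 on chromosome 5, had the smallest distance between sets of all members, 0.072, at intensities of 0.44 to 1.89, followed by EXPA24 at 0.20, TBL18 at 0.23 and GH9B11 at 0.25. TBL18 differed from the other 3 in being measured well above the floor, at 57.5 to 81.5. A filter that needs 3 arrays above 22.9 was passed by 42 members.

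The alpha-expansins EXPA8 and EXPA9 had different orders over the sets. EXPA8 (AT2G40610) had intensities of 97.6, 103 and 104 in soil seedlings, 137, 207 and 128 in ATGE_22, 428, 299 and 219 in ATGE_23 and 244, 397 and 329 in ATGE_24. On medium it had 56.3, 64.8 and 64.5 in ATGE_96 and 297, 329 and 278 in ATGE_97, then 136, 147 and 157 in ATGE_100 and 271, 274 and 279 in ATGE_101. Both sets with sucrose were above all arrays of their own pair without it, and ATGE_96 was below all other sets. EXPA9 (AT5G02260) ran differently, with 75.1, 75.9 and 69.2 in soil seedlings against 16.4 to 23.8 in ATGE_22, 19.4 to 26.7 in ATGE_23 and 13.2 to 30.7 in ATGE_24, and 36.3 to 53.7 in ATGE_96. EXPA4, EXPA9, EXPA15 and EXPA16 were the 4 of the 6 alpha-expansins called by the F test that had their highest mean in ATGE_7, the set in which 31.6% of all called probe sets were highest. The remaining called members were EXPA8, highest in ATGE_24, and EXPA18, highest in ATGE_97 at a mean of 21.9.

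The beta-expansins EXPB1 and EXPB3 shared a low point in ATGE_96. EXPB3 (AT4G28250) had 219, 253 and 278 in ATGE_7, 50.2, 52.4 and 47.8 in ATGE_96 and 112, 116 and 114 in ATGE_97. EXPB1 (AT2G20750) had 35.3, 44.8 and 45.3, 9.37, 4.75 and 1.77 and 18.4, 23.4 and 15.1 in the same sets. For both, the 3 ranges did not overlap. All 4 EXPB means were below their own average over the sets in ATGE_96 and in ATGE_22, and above it in ATGE_7. However, EXPB2 and EXPB5 lay under the 40th percentile on every array and were not called by the F test. Of all 22746 probe sets, 8382 were above their own average in ATGE_96, 11161 in ATGE_22 and 10954 in ATGE_7.

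All 3 expansin-like A genes were lowest in ATGE_7 and highest in ATGE_100. Of all probe sets called by the F test, 29.4% were lowest in ATGE_7 and 11.1% highest in ATGE_100. The distance between those set means on the log2 scale was 5.65 for EXLA1, the widest of all members, 3.22 for EXLA3 and 2.61 for EXLA2, with 3.27 for GH9C2 and 3.18 for GH9B8 among the others. EXLA1 (AT3G45970) had intensities of 20.7, 17.6 and 23.7 in soil seedlings, 596, 575 and 713 in ATGE_22, 93.3, 82.3 and 51.1 in ATGE_23 and 39.4, 95.5 and 61.2 in ATGE_24. On medium it had 774, 808 and 772 in ATGE_96, 199, 207 and 189 in ATGE_97, 1111, 1631 and 1399.6 in ATGE_100 and 607, 629 and 598 in ATGE_101. Soil seedlings thus lay below every other array, and ATGE_22 lay above all arrays of the 2 sets that carry the same labels. EXLA3 (AT3G45960), the next gene to EXLA1 on chromosome 3, was at 0.829, 0.785 and 0.314 in ATGE_7 and at 57.9, 61.6 and 67.1 in ATGE_100. EXLA2 (AT4G38400), on chromosome 4, was at 12.2, 11.2 and 14.0 and 110.1, 119 and 103. EXLB1 (AT4G17030) did not share this order: it was highest in ATGE_23, at 131, 104 and 152, and lowest in ATGE_96, at 48.2, 46.5 and 33.7.

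In GH9 the 2 members with the widest range were the class C enzyme GH9C2 (AT1G64390) and the class B enzyme GH9B8 (AT2G32990). GH9C2 had 551, 591 and 523 in ATGE_7 and 47.7, 51.7 and 54.5 in ATGE_96, with 119.9, 121 and 127 in ATGE_97, 92.9, 92.5 and 93.4 in ATGE_100 and 202, 201 and 189 in ATGE_101. GH9B8 had 156, 161 and 140.1 in ATGE_23, 154, 105 and 140.1 in ATGE_24, 72.8, 75.7 and 99.7 in ATGE_22 and 14.4, 11.3 and 7.27 in ATGE_96. ATGE_96 was below every other set in both, with no overlap. GH9B13 (AT4G02290) had 20.1, 21.2 and 20.0 in ATGE_96 and 145, 141 and 135 in ATGE_101, and its whole-plant arrays spread widely, from 49.6 to 189. By contrast GH9B7 (AT1G75680) held between 262 and 484 on all 24 arrays. Of the 8 GH9 members called by the F test, 5 were lowest in ATGE_96 and 4 highest in ATGE_101. Of all probe sets called, 21.2% were lowest in ATGE_96 and 16.4% highest in ATGE_101. The membrane-anchored class A was represented by GH9A3, at 12.9 to 46.7, and GH9A4, at or under 16.05.

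Of the 7 CSL members, the mannan synthase CSLA03, the xyloglucan backbone synthase CSLC04 and CSLD2 were lowest in ATGE_7 and highest in ATGE_100. So were the means of CSLC12, which the F test did not call. Among all probe sets that it called, 29.4% were lowest in ATGE_7 and 11.1% highest in ATGE_100. CSLC04 (AT3G28180) had 192, 229 and 181 in ATGE_7, 540.2, 561 and 543 in ATGE_22, 345 to 371 in ATGE_23 and 358 to 386 in ATGE_24. On medium it had 344, 369 and 324 in ATGE_96, 329, 319 and 294 in ATGE_97, 752, 756 and 727 in ATGE_100 and 409.5, 422 and 421 in ATGE_101. ATGE_100 stood above every other array and ATGE_7 below. CSLD2 (AT5G16910) had 232, 267 and 267 in ATGE_96 and 295, 259.9 and 253 in ATGE_100, against 128, 133 and 119 and 163, 167 and 142 in their partners with sucrose. CSLD2 is known for root-hair growth. The summed root list, carried by PYK10, was also higher in ATGE_96 and ATGE_100 (2245 to 2337 and 1165 to 1314) than in ATGE_7 (717 to 809), while EXPA7 and EXPA18 stayed at or under 15.5 and 26.7, and the part of root tissue in the CSLD2 values was not tested. CSLA01 (AT4G16590) had a different order, highest in ATGE_7 at 43.6, 58.8 and 57.2 and lowest in ATGE_96 at 11.1, 13.1 and 9.84. It had 61.8, 48.8 and 42.4 in ATGE_101, and its whole-plant arrays spread from 17.5 to 67.0. The other CSLC members moved less: CSLC5 lay between 58.8 and 141, CSLC6 between 54.2 and 98.6 and CSLC12 between 10.4 and 25.0.

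Among the TBL genes TBL26 (AT4G01080) and TBL38 (AT1G29050) had the widest range. TBL26, a mannan acetyltransferase, had 308, 275 and 304 in ATGE_7, while the 12 arrays on medium lay between 29.0 and 65.96. The whole plants lay between 84.7 and 332, and within ATGE_23 alone the arrays read 87.0, 216 and 332. TBL38 had 40.1, 35.6 and 34.9 in ATGE_7, 52.5, 53.3 and 52.7 in ATGE_96, 97.1, 120.3 and 102 in ATGE_97, 307, 299 and 296 in ATGE_100 and 326, 320.3 and 279 in ATGE_101. The later medium pair was thus above all other sets. TBL37 (AT2G34070) separated soil from medium: its 12 soil arrays lay between 72.8 and 108 and its 12 medium arrays between 206 and 363. TBL25, another mannan acetyltransferase, lay between 154 and 369 with its highest mean in ATGE_97. The xylan acetyltransferase genes TBL28, TBL32, TBL34 and TBL35 had medians over all arrays of 39.5, 25.7, 17.8 and 39.2, and TBL30, which lies next to TBL28 on chromosome 2, one of 11.7.

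**Figure D2:**
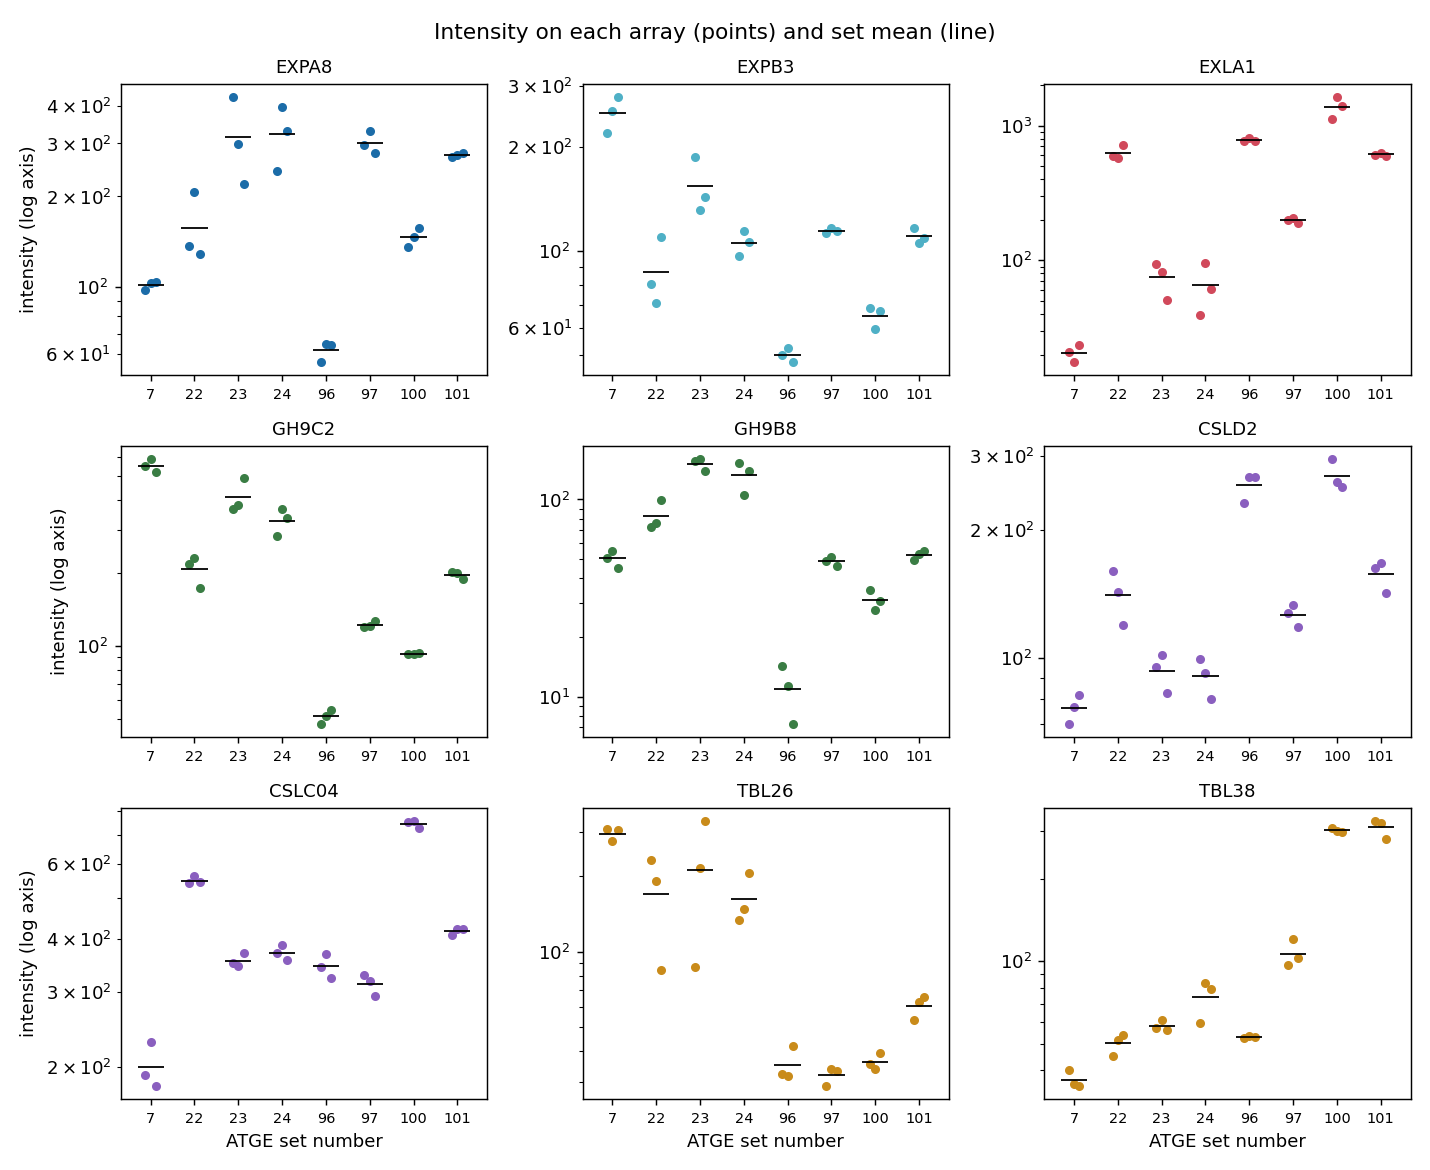
Intensity (log axis) of 9 members on each of the 24 arrays (points) with the mean of each set of 3 (lines), by ATGE set number. EXPA8, EXPB3, GH9C2 and GH9B8 have their lowest points in ATGE_96, EXLA1, CSLD2 and CSLC04 in ATGE_7.

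The first question the design poses is what 5% sucrose in the medium did, and it can be asked in each medium pair. In the first pair, EXPA8, GH9B8, GH9C2, EXPB1 and EXPB3 were higher with sucrose and EXLA1 and CSLD2 were lower. Of the 66 members 11 were called higher in ATGE_97 than in ATGE_96 (16.7%, against 12.8% of all probe sets) and 3 lower (4.55%, against 7.54%). The median difference was 0.12 on the log2 scale over the members and 0.067 over all probe sets. A call is named firm here if it kept its direction and threshold in all alternatives run for it, and 9 of the 14 were firm. EXPA8 rose by 2.17 (SE 0.20, limma adjusted p = 1.6e-07), or 4.49-fold on the scale of intensity plus pseudocount. GH9B8 rose by 1.66 (SE 0.15, adjusted p = 1.3e-07) and GH9C2 by 1.16 (SE 0.12, adjusted p = 5.6e-07). EXPB1 and EXPB3 rose by 1.13 and 1.09 (adjusted p = 0.00073 and 6.7e-06). TBL38 rose by 0.92 (adjusted p = 3.5e-06) and CSLC5 by 0.81 (adjusted p = 4.1e-05). EXLA1 fell by 1.95 (SE 0.22, adjusted p = 2.2e-06) and CSLD2 by 0.97 (SE 0.11, adjusted p = 3.6e-06). The 3 arrays with sucrose did not overlap the 3 without in 28 of the 66 members, these 9 included (42.4%, against 40.1% of all probe sets). With 4 times the pseudocount the rise of GH9B8 was 0.996, and that of EXPB1 was 0.51, or 1.70 with the pseudocount divided by 4, both genes being low in ATGE_96.

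In the second pair the same question gave 7 members called higher in ATGE_101 than in ATGE_100 (10.6%, against 6.29% of all probe sets) and 7 called lower (10.6%, against 3.89%). The lower ones included 3 of the 7 CSL members and 2 EXLA genes, and the higher ones were 2 EXPA, 1 EXPB, 2 GH9, 1 CSL and 1 TBL. CSLA03, read at 216, 196 and 215 without and 81.0, 62.3 and 62.3 with sucrose, fell by 1.53 (SE 0.13, limma adjusted p = 1.5e-07). CSLC04 fell by 0.82 (SE 0.082, adjusted p = 1.7e-06), CSLD2 by 0.75 (adjusted p = 0.00017) and EXLA1 by 1.15 (adjusted p = 0.0014). CSLA03, a synthase of glucomannan, and CSLC04, of the xyloglucan backbone, were thus among those that fell, together with the expansin-like gene. Other CSLA and CSLC members were not called lower. CSLC5 was called higher, by 0.40 (not firm), and CSLA01 had a difference of 0.98, not called. CSLC12 and CSLC6 had -0.11 and -0.016, not called. Of the other EXLA genes, EXLA2 was called lower, by 0.64 (not firm), and EXLA3 had -0.38, not called. GH9C2 rose by 1.03 (SE 0.12, adjusted p = 6.5e-06), EXPA8 by 0.88 (0.0055), EXPB3 by 0.71 (0.0014) and GH9B8 by 0.65 (0.0060), the values in brackets being adjusted p. TBL45, read at 443, 418 and 421 and 288, 279 and 272, fell by 0.60 (adjusted p = 0.0027). Apart from CSLC5, CSLC6, CSLC12, CSLA01, EXLA2 and EXLA3, the 9 members named here were the firm calls of the 14. Arrays of the groups did not overlap in 29 members, the 9 included (43.9%, against 31.4% of all probe sets). The count of 14 was 9 without array B of ATGE_100 and 9 without array C of ATGE_101. The actin ratio given above moved with this pair, and the summed vascular probe sets IRX15 and IRX15-L had 55.9 to 62.6 in ATGE_100 and 96.0 to 103 in ATGE_101; their part in the result was not tested.

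The pairs share no array, so their calls can be set side by side. Of the members, 10 were called in both pairs, 71.4% of the 14 in each, and all 10 had the same direction. Of all probe sets 1182 were called in both, 25.6% of the first list and 51.1% of the second, and 95.3% of them had the same direction. The 10 include EXPA8, EXPB3, GH9C2 and GH9B8, higher with sucrose, and EXLA1 and CSLD2, lower. EXLA2 was lower in both, by 0.62 and 0.64 (adjusted p = 0.033 and 0.048), but the first call was lost without array A or C of ATGE_96 or array B of ATGE_97 (adjusted p up to 0.20) and the second without any 1 of the 6 arrays (up to 0.20).

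**Figure D3:**
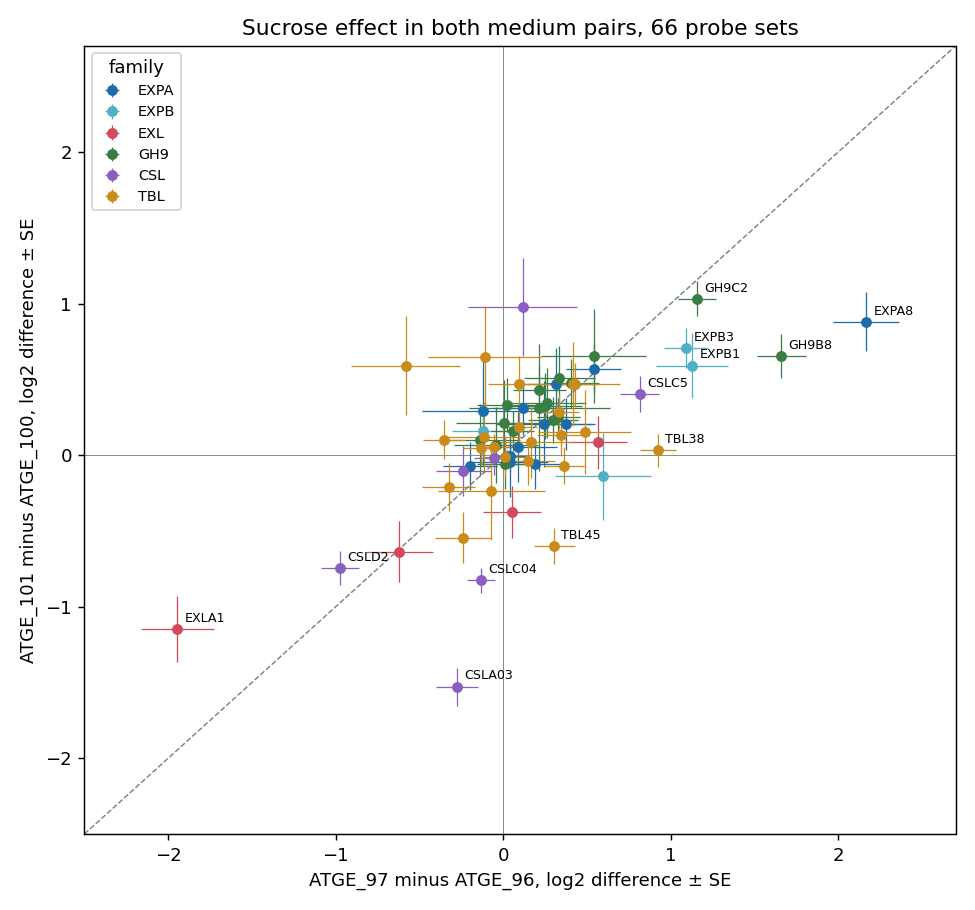
Log2 difference with sucrose in the first pair (ATGE_97 minus ATGE_96, horizontal) against that in the second (ATGE_101 minus ATGE_100, vertical) for the 66 probe sets, with standard errors; the dashed line marks equal effects. Names mark firm calls in either pair. EXPA8 and GH9B8 lie below the line on the right, CSLA03 and CSLC04 below it near a horizontal value of 0.

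The sucrose effect itself differed between the pairs in 6 members, and in all 6 it was lower in the second pair. A test of the difference (second pair minus first) called 0 members higher, against 2.94% of all probe sets, and 6 lower (9.09%, against 3.54%). At an unadjusted p under 0.05, 11 members (16.7%) passed in either direction, against 19.5% of all probe sets. EXPA8 rose in both pairs but less in the second, with a difference of -1.29 (SE 0.28, limma adjusted p = 0.0081). GH9B8 did likewise, with -1.01 (SE 0.21, adjusted p = 0.0064). CSLA03 had -0.28 in the first pair, not called, and its difference was -1.25 (SE 0.18, adjusted p = 0.00027). CSLC04 had -0.13 in the first pair, not called, and a difference of -0.69 (SE 0.12, adjusted p = 0.0013). For TBL38 the effect was 0.92 and then 0.032, not called, a difference of -0.89 (adjusted p = 0.0014). For TBL45 it was 0.30, not called, and then -0.60, a difference of -0.90 (adjusted p = 0.0034). The count of 6 was 11 when only these 4 sets were fitted.

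Set against each other without sucrose, ATGE_100 was higher than ATGE_96 in all 4 expansin-like probe sets. In all, 15 members were called higher (22.7%, against 11.4% of all probe sets) and 4 lower (6.06%, against 7.87%), 11 of them firm. TBL38 rose by 2.37 (SE 0.11, limma adjusted p = 1.0e-11), EXLA3 by 1.92 (SE 0.17, adjusted p = 1.3e-07) and GH9B13 by 1.78 (SE 0.31, adjusted p = 0.00034). EXLA2 rose by 1.33, EXPB1 by 1.17, EXPA8 by 1.16, GH9B8 by 1.11 and CSLC04 by 1.10, with adjusted p of 7.1e-05, 0.00055, 0.00024, 1.7e-05 and 1.1e-08. The firm call in the other direction was EXPA16 (AT3G55500), which read 29.3, 34.6 and 26.7 in ATGE_96 and 10.2, 10.3 and 15.1 in ATGE_100 and fell by 0.99 (adjusted p = 0.00015). Arrays did not overlap in 30 members, the 11 included (45.5%, against 38.5% of all probe sets). The calls of EXLA1 and EXLB1 were not firm, with rises of 0.79 and 0.61 and adjusted p of up to 0.069 and 0.10; that of EXLA1 was lost without array B of ATGE_100, and that of EXLB1 without array C of ATGE_96 or of ATGE_100 and with quantile normalization. With 4 times the pseudocount the rises of EXLA3, EXPB1 and GH9B8 were 1.21, 0.53 and 0.61, and EXPA16 had a difference of -0.56. The summed root list, carried by PYK10, was at 2245 to 2337 in ATGE_96 and at 1165 to 1314 in ATGE_100. In the same sets the vascular probe sets were at 21.97 to 35.02 and 55.9 to 62.6. The part of either list in the result was not tested.

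With sucrose, ATGE_101 compared with ATGE_97 gave 13 members called higher (19.7%, against 13.4% of all probe sets) and 8 lower (12.1%, against 11.4%), 17 of them firm. GH9B13 rose by 1.89 (SE 0.31, limma adjusted p = 0.00014), EXLA1 by 1.59 (SE 0.22, adjusted p = 1.7e-05) and CSLA01 by 1.55 (SE 0.33, adjusted p = 0.0014). EXLA3, TBL38, EXLA2 and GH9B5 rose by 1.49, 1.48, 1.31 and 0.94, with adjusted p of 2.6e-06, 5.3e-09, 6.1e-05 and 0.00025. EXPA16 fell by 0.87 (adjusted p = 0.00042), CSLA03 by 0.87 (3.4e-05), TBL45 by 0.73 (0.00017) and the mannan acetyltransferase TBL25 by 0.57 (0.0014). Thus 3 of the 4 expansin-like probe sets and 4 of 17 GH9 rose, while 2 CSL rose and 2 fell. There was no overlap between the groups in 29 members, among them the 17 firm ones (43.9%, against 42.2% of all probe sets). With 4 times the pseudocount CSLA01, EXLA3, EXPA16 and GH9B5 had differences of 0.96, 0.90, -0.47 and 0.52. From ATGE_97 to ATGE_101 the summed root list, carried by PYK10, went from 2511 to 2773 down to 990 to 1091. The vascular probe sets went from 20.3 to 29.6 up to 96.0 to 103. The actin ratio went from a mean of 3.80 to one of 8.62. The part of these lists and of the ratio in the result was not tested. This comparison and the sucrose comparisons share arrays, so their values are not independent.

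**Figure D4:**
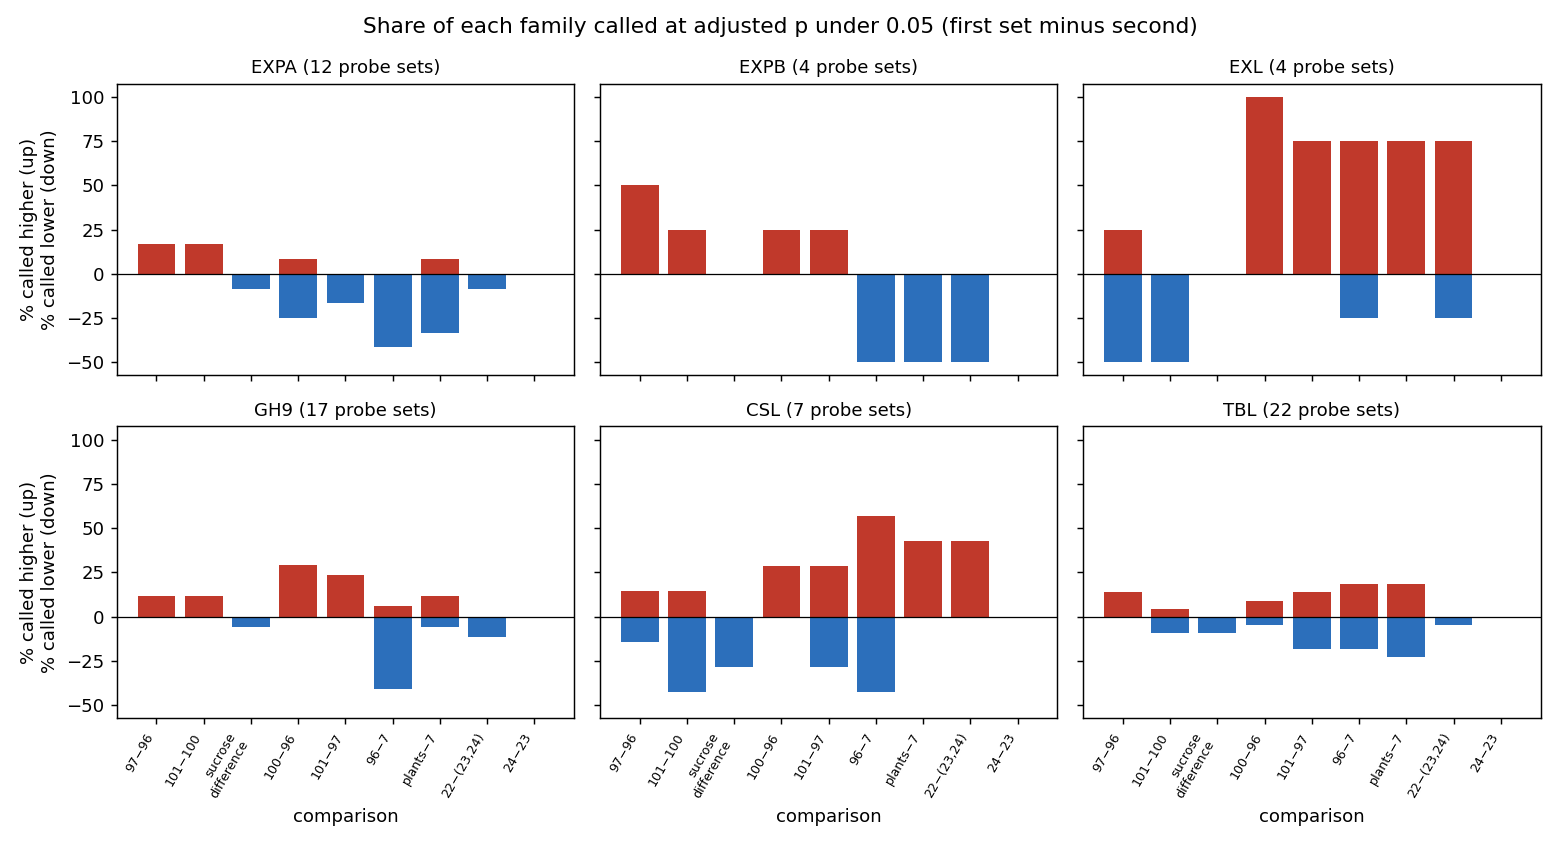
Share of each family called at adjusted p under 0.05 in 9 comparisons (percent of its probe sets; red above 0 for higher in the first-named set, blue below 0 for lower). In EXL 100% were higher in ATGE_100 than in ATGE_96, against 11.4% of all probe sets, and 2 of these 4 calls were firm. In EXPA 41.7% and in GH9 41.2% were lower in ATGE_96 than in ATGE_7, against 29.3% of all probe sets.

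Seedlings on sucrose-free medium and on soil were then compared (ATGE_96 minus ATGE_7), which also differ in temperature. The EXLA genes were higher on medium, and the EXPA, EXPB and GH9 members that were called were lower, except GH9C1, whose 24 intensities of 4.79 to 17.1 lie near the bottom of the scale. Of the members 12 were called higher (18.2%, against 21.6% of all probe sets) and 22 lower (33.3%, against 29.3%), so the total was close to the background, and 27 were firm. EXPA had 0 higher and 5 lower of 12, EXPB 0 and 2 of 4, GH9 1 and 7 of 17, EXL 3 and 1 of 4, CSL 4 and 3 of 7, and TBL 4 and 4 of 22. EXLA1 rose by 4.86 (SE 0.22, limma adjusted p = 3.1e-13), a 29.0-fold difference on the scale of intensity plus pseudocount. EXLA2 and EXLA3 rose by 1.28 and 1.30 (adjusted p = 1.5e-05 and 1.9e-06), while EXLB1 fell by 1.34 (adjusted p = 1.9e-06). The rises of EXLA2 and EXLA3 have no fixed size, since EXLA3 was at or under 0.829 in ATGE_7: they were 0.76 and 0.48 with 4 times the pseudocount and 1.56 and 2.504 with it divided by 4. GH9C2 fell by 3.27 (SE 0.12, adjusted p = 1.0e-14), GH9B13 by 2.19 (5.0e-06) and GH9B8 by 1.70 (4.9e-09). The beta-expansins EXPB3 and EXPB1 fell by 2.17 and 2.05 (3.2e-11 and 8.3e-08) and the alpha-expansins EXPA4 and EXPA15 by 1.43 and 1.20 (2.8e-07 and 5.8e-06).

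The polysaccharide genes split in the same comparison. CSLD2, CSLA03 and CSLC04 rose by 1.66, 1.44 and 0.77 (adjusted p = 1.5e-10, 5.1e-09 and 1.1e-07), whereas CSLA01 fell by 1.72 (adjusted p = 0.00014). The 2 mannan synthase genes thus went opposite ways. TBL26 fell by 2.85 (SE 0.34, adjusted p = 4.3e-07) and TBL37 rose by 1.64 (SE 0.16, adjusted p = 2.3e-08). The groups did not overlap in 35 members, the 27 firm ones included (53%, against 57.9% of all probe sets). With 4 times the pseudocount the falls of CSLA01, EXPB1 and GH9B8 were -1.06, -1.10 and -1.03 as signed differences. The summed root list, carried by PYK10, was higher in ATGE_96, at 2245 to 2337 against 717 to 809. Means of the actin 3′ to 5′ ratio were 4.12 in ATGE_96 and 5.96 in ATGE_7, and those of the GAPDH ratio 1.41 and 0.93. The part of the root list and of these ratios in the differences was not tested.

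Whole plants, taken as the mean of ATGE_22, ATGE_23 and ATGE_24, were compared with soil seedlings. EXLA genes, EXPA8, GH9B8 and CSLC04 were higher in the plants and EXPA9, EXPB3 and GH9C2 lower. There were 13 members called higher (19.7%, against 23.7% of all probe sets) and 12 lower (18.2%, against 23%), both under the background, and 19 were firm. EXLA1 rose by 2.47 (SE 0.18, limma adjusted p = 6.5e-10), EXLA2 by 1.35 (8.1e-07) and EXLA3 by 0.95 (1.1e-05). EXPA8 rose by 1.22 (2.2e-06), GH9B8 by 1.13 (1.3e-07) and CSLC04 by 1.04 (1.6e-10). EXPA9 fell by 1.504 (SE 0.15, adjusted p = 4.8e-08), EXPB3 by 1.12 (4.5e-08) and GH9C2 by 0.86 (2.3e-07). Of the 12 alpha-expansins 1 was higher and 4 lower, so EXPA8 went against the others of its family that were called. The groups did not overlap in 18 members, 16 of the 19 firm ones included (27.3%, against 32.2% of all probe sets). With 4 times the pseudocount EXLA2 and EXLA3 rose by 0.83 and 0.36, and EXLA3 by 1.85 with the pseudocount divided by 4. The summed root list, carried by PYK10, was lower in the plants (27.4 to 85.1 against 717 to 809). EXPA18 had means of 17.4, 21.7 and 15.0 in ATGE_22, ATGE_23 and ATGE_24 and 12.1 in ATGE_7. EXPA7 had 7.59, 6.15 and 9.10 against 5.24, and both genes lie near the bottom of the scale. Means of the actin 3′ to 5′ ratio were 9.51, 10.06 and 9.01 in the plant sets and 5.96 in ATGE_7. The part of the root list and of this ratio was not tested.

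The 3 whole-plant sets carry identical labels, yet ATGE_22 stood apart from the other two in the expansin-like genes. Against the mean of ATGE_23 and ATGE_24, 6 members were called higher (9.09%, against 5.05% of all probe sets) and 7 lower (10.6%, against 5.57%). The higher ones were EXLA1 to EXLA3, CSLC04, CSLD2 and CSLA03, and the lower ones EXPA8, EXPB1, EXPB3, GH9C2, GH9B8, EXLB1 and TBL38. EXLA1 rose by 3.09 (SE 0.19, limma adjusted p = 6.0e-10), EXLA3 by 1.38 (2.0e-06), CSLC04 by 0.58 (9.2e-06) and CSLD2 by 0.58 (0.00038). GH9C2 fell by 0.81 (1.1e-05) and GH9B8 by 0.74 (0.00046). These 6 were firm, and the count of 13 was 6 when only the compared sets were fitted. Arrays did not overlap in 11 members, the 6 included (16.7%, against 10% of all probe sets). The call was lost there for EXPA8, EXPB1, EXPB3, EXLB1, EXLA2, CSLA03 and TBL38, whose largest adjusted p over the alternatives lay between 0.058 and 0.17. It was also lost without array A of ATGE_22 for EXPB1, EXLA2 and TBL38, without array B for EXPB3 and TBL38, and without array C for EXLA2 and EXLB1. EXLA3, at 23.5, 17.1 and 20.6 in ATGE_22 and 1.81, 3.11 and 6.09 in ATGE_23, moved with the pseudocount, from 0.62 with 4 times it to 2.09 with it divided by 4.

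This comparison shares no array with either sucrose comparison, and the directions were opposite. Its calls rest on the same estimate of spread as theirs, so the lists of calls are not independent. Of the 13 members, 10 were also called in the first pair (71.4% of that list and 76.9% of this), all 10 with the opposite sign. With the second pair 9 were shared (64.3% and 69.2%), again all 9 opposite. Over all probe sets 1172 were shared with the first pair (25.4% and 48.5%), 87.8% of them opposite, and 667 with the second (28.8% and 27.6%), 87.7% opposite. EXLA1, higher in ATGE_22, was lower with sucrose in both pairs. GH9C2 and GH9B8, lower in ATGE_22, were higher with sucrose in both.

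**Figure D5:**
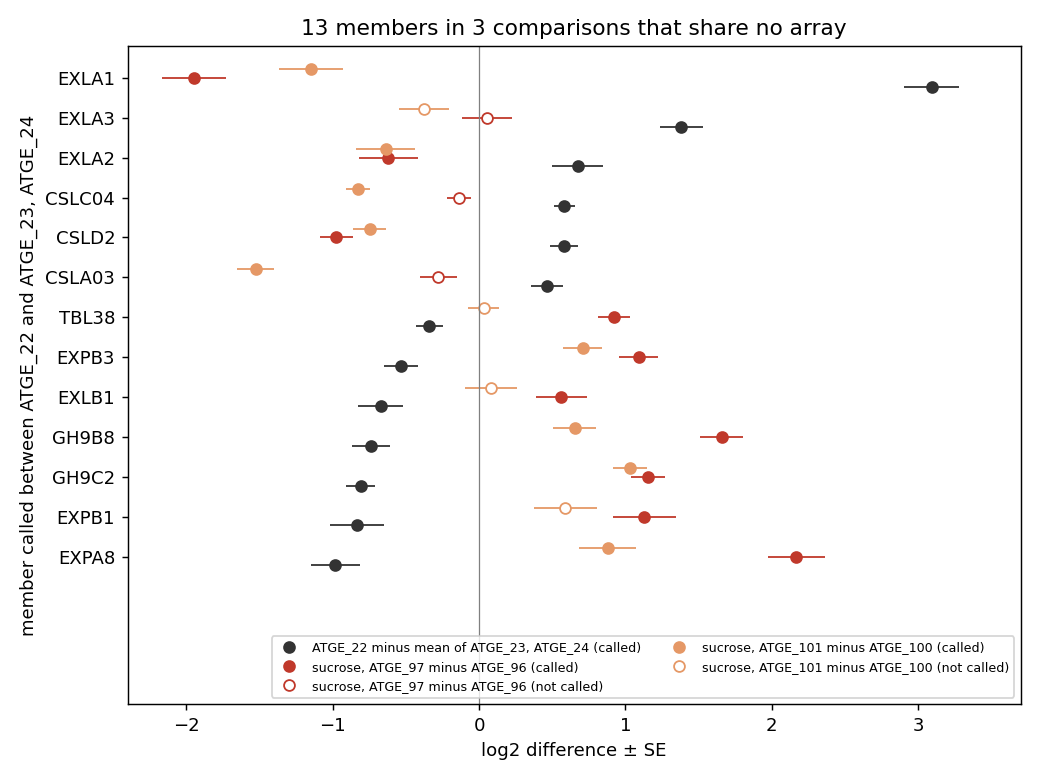
Log2 differences with standard errors of the 13 members called between ATGE_22 and the mean of ATGE_23 and ATGE_24 (black), beside both sucrose comparisons (red and orange; open circles were not called). Each filled red or orange point lies on the other side of 0 from its black point, as for EXLA1 with 3.09 against -1.95 and -1.15.

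Between ATGE_24 and ATGE_23 limma called 0 members, against 0.176% of all probe sets higher and 0.158% lower. At an unadjusted p under 0.05 there were 7 members (10.6%), against 11.1% of all probe sets, and with a trend and robust fitting 0 were called. The median difference over the members was 0.00071.

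Other wall genes carrying a symbol give the setting. A list of 15 (xyloglucan endotransglucosylases, XTH; pectin methylesterases; the xylan genes IRX15 and IRX15-L; COB, which orients cellulose deposition; GAUT15) had 2 called higher in the first sucrose pair (13.3%, against 12.8% of all probe sets) and 2 lower (13.3%, against 7.54%). In the second pair there were 3 higher (20%, against 6.29%) and 3 lower (20%, against 3.89%), and for the difference of the sucrose effects 1 higher (6.67%, against 2.94%) and 0 lower. ATGE_100 minus ATGE_96 had 6 higher (40%, against 11.4%) and 0 lower (against 7.87%), and ATGE_101 minus ATGE_97 had 7 higher (46.7%, against 13.4%) and 1 lower (6.67%, against 11.4%). There were 6 higher (40%, against 21.6%) and 2 lower (13.3%, against 29.3%) in ATGE_96 minus ATGE_7. Whole plants against soil seedlings gave 6 higher (40%, against 23.7%) and 0 lower (against 23%). ATGE_22 against the others gave 5 higher (33.3%, against 5.05%) and 1 lower (6.67%, against 5.57%), 2 of them firm. ATGE_24 minus ATGE_23 gave 0 higher and 1 lower (6.67%, against 0.158%), not firm. Firm calls of this list numbered 3 in each sucrose pair and 0 for the difference of the effects. They numbered 5 in ATGE_100 minus ATGE_96, 6 in ATGE_101 minus ATGE_97, 6 in ATGE_96 minus ATGE_7 and 5 in whole plants against soil seedlings. XTH18 (AT4G30280) had the largest firm difference of this list in the first sucrose pair and in ATGE_22, falling by 3.07 with sucrose (limma adjusted p = 1.1e-05) and rising by 2.24 in ATGE_22 (adjusted p = 0.00012). In the second pair XTH16 (AT3G23730) fell by 1.33 (adjusted p = 0.00024) and XTH19 (AT4G30290) rose by 1.07 (adjusted p = 0.0032). In ATGE_96 minus ATGE_7 XTH18 rose by 6.64 (adjusted p = 1.8e-11), from a mean of 2.20, near the bottom of the scale, to 871. IRX15 rose by 1.88 in ATGE_100 minus ATGE_96 (1.9e-06) and by 2.11 in ATGE_101 minus ATGE_97 (3.6e-07), from low means of 1.15 and 4.60. PMEPCRF rose by 1.13 in whole plants against soil seedlings (2.9e-08). Values in brackets are adjusted p. XTH enzymes cut and rejoin xyloglucan, the polymer whose backbone CSLC04 makes.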

How the data were processed

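Each of 24 RNA samples has 1 one-colour array. The authors deposited a linear intensity per probe set and array, made with MAS5 per the submitters' processing notes, which give no version. In every array the 2% trimmed mean of the deposited intensity was 100, and no further normalization was applied. Groups are the set numbers of the sample titles. Of 22810 probe sets, 64 controls were left out.

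Values were turned into log2(intensity + 6.75), the pseudocount being the 20th percentile of the table, so differences of low genes are understated. A linear model with a mean for each of the 8 sets was fitted to the 24 arrays in limma 3.58.1 (R 4.3.3, and the package data.table in version 1.17.8) and moderated with eBayes, with 16 residual degrees of freedom and a prior of 3.41. Tests were two-sided, no intensity filter was set, and Benjamini-Hochberg adjustment covered all 22746 probe sets; results at adjusted p under 0.05 are called. Higher and lower refer to the first-named set. Precision is limited by the number of arrays.

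Up to 8 firm calls with the largest difference were named in each comparison, together with the largest 3 firm differences or fewer of the wall gene list; genes beyond these were chosen after their values were seen. A call is firm if it kept its sign and adjusted p under 0.05 in the alternatives run for it and stayed within 1.5 times its value with any array left out; 104 of 146 were. The alternatives were pseudocounts of 1.69 and 27, filters at the 40th and 60th percentile (22.9 and 61.6), quantile normalization, a common 75th percentile, a trended and robust eBayes, a block on the replicate letter, fitting only the compared sets, leaving out each array, and leaving out arrays 24 A, 100 A and ATGE_101 A together. The letters do not pair the samples: deviations of same-lettered arrays correlated at r of -0.103 to 0.101 over 28 pairs of sets, and in 0 of them were all over 0.1. Members, lists and comparisons were chosen with earlier results of these data known.

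Of all probe sets 13513 were annotated with 1 gene, 503 with several and 8730 with none; a gene whose probe set carries no symbol is not among the members. Gene order and the 122 symbols are from RefSeq, and all 66 members matched it; no coordinates are used. The procedure was tested on simulated data.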

Additional observations from a re-analysis of the deposited data

Results flagged for a closer look

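The effect of sucrose on 6 members differed between the medium pairs in a test of the difference itself (second pair minus first, log2 scale, limma adjusted p between 0.00027 and 0.0081). The differences were -1.29 for the alpha-expansin EXPA8, -1.25 for the mannan synthase gene CSLA03, -1.01 for the GH9 class B gene GH9B8, -0.90 for TBL45, -0.89 for TBL38 and -0.69 for the xyloglucan synthase gene CSLC04. In EXPA8 and GH9B8 both pairs rose, in CSLA03 and CSLC04 the fall was called in the second pair alone, in TBL38 the rise was called in the first pair alone, and TBL45 was called lower in the second. The difference of GH9B8 was -0.54 with 4 times the pseudocount (adjusted p = 0.023). The pairs also differ in whatever set ATGE_100 and ATGE_101 apart from ATGE_96 and ATGE_97, which the labels do not give, and that cannot be told apart from the difference of the effects. The actin 3′ to 5′ ratio was 4.12 ± 1.92 (SD, n = 3) in ATGE_96, 3.80 ± 0.37 in ATGE_97, 3.60 ± 0.79 in ATGE_100 and 8.62 ± 0.43 in ATGE_101, and its part in these differences was not tested.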

How the results depend on the processing

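Of 192 counts of members called under the alternatives, 186 stayed within 1.5 times the value reported, and of 1571 recomputed differences of named members 1537 kept their direction and their side of the threshold, 31 lost their call, 3 gained one and 0 reversed. With only the compared sets in the fit, the difference of the sucrose effects had 11 calls in place of 6, and ATGE_22 against the mean of ATGE_23 and ATGE_24 had 6 in place of 13. With the filter at the 60th percentile, ATGE_24 minus ATGE_23 had 1 call in place of 0 and the F test 26 in place of 40, with fewer probe sets tested. Leaving out 1 array moved the calls of ATGE_101 minus ATGE_100 to between 9 and 12, from 14. It gave 10 to 14 for ATGE_97 minus ATGE_96 (from 14) and 14 to 17 for ATGE_100 minus ATGE_96 (from 19). Counts were 18 to 21 for ATGE_101 minus ATGE_97 (from 21) and 30 to 34 for ATGE_96 minus ATGE_7 (from 34). Whole plants against ATGE_7 had 20 to 26 (from 25) and ATGE_22 against the other plant sets 10 to 14 (from 13). With the replicate block the counts were 12 in place of 14 for the first sucrose pair, 13 for the second, 6 for the difference and 39 for the F test. Of family medians, 1068 of 1113 kept their value within the spread or their sign. The pseudocount moved the log2 value of 25 of the 104 firm calls by over 1.5 times, so fold changes of members near the floor have no fixed size. Rescaling moved the median of all probe sets by at most 0.065; a common 75th percentile changed the share of higher among calls from 52.6% to 36% for ATGE_24 minus ATGE_23, and quantile normalization that of ATGE_100 minus ATGE_96 from 59.1% to 49.1%. Intensities at the bottom of the scale carry no order, which applies to 23 of the 66 members.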
